A study of Mus musculus with 6 samples.

Results

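Thrombospondins, tenascins, periostin and the SPARC proteins are matricellular proteins. These are secreted into the extracellular matrix, where they bind collagens, growth factors and cell surface receptors, and they regulate how cells respond to the matrix rather than bearing load themselves. In arteries they are made by smooth muscle cells and adventitial fibroblasts, and several are known for high levels during growth of the wall or after injury. The genes described here are Thbs1, Thbs2, Thbs3, Thbs4, Comp, Tnc, Tnxb, Postn, Sparc and Sparcl1, chosen by their symbols in the table of counts per gene. They are 10 of the 55335 genes of that table, and all 10 were among the 16612 genes with enough counts to be tested.

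RNA was sequenced from the aorta of wild-type c57b6l mice, 3 young mice of 6 weeks and 3 aged mice of 6 months, with 1 library per mouse. No agent or allele differed between the groups, and the study's methods state that all mice were male, that fat around the vessel was dissected away and that vessel pieces were frozen. Ages of 6 weeks and 6 months compare a growing with an adult animal, and in whole tissue fewer cells of a type and less RNA per cell cannot be told apart. Values are given as CPM, counts scaled to library size with edgeR's TMM normalization, for comparisons of 1 gene between libraries, and as the FPKM of the authors, which are also scaled by gene length, for comparisons between genes.

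Total counts lay between 31049632 and 45832185 per library. Smooth muscle markers (Acta2, Tagln, Myh11, Cnn1, Smtn and Lmod1) summed to between 27960 and 40140 CPM, so every library held smooth muscle RNA as its label requires. RNA of adipocyte markers (Adipoq, Plin1, Cidec, Fabp4, Lep and Ucp1) was also present in every library. It summed to 799, 1500 and 422 CPM in young replicates 1, 2 and 3, and to 656, 3259 and 923 CPM in aged replicates 1, 2 and 3. The part of fat in the values below was not tested. The library labelled young replicate 1 stood apart in sex-linked genes. It had 14806 counts of Xist, the RNA of the inactive X chromosome of females, against 7 to 24 in the others, and 53 counts of the Y-linked gene Ddx3y against 1488 to 2117. These are counts of female RNA, whereas the study's methods state that all mice were male. No aged library had such counts, so by these genes sex was not balanced between the ages. Results are therefore given with and without young replicate 1. Genes of the mitochondrial genome took 14.9% to 21.2% of the counts in young and 23.1% to 30.4% in aged aorta. The median log2 fold change of all tested genes was 0.02 on TMM-normalized counts and -0.12 on log2(FPKM + 1).

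The 10 genes covered more than 3 orders of magnitude in level. Sparc, a collagen chaperone of the matrix also called osteonectin, was the highest with a mean of 800.3 FPKM ± 281 (SD over all 6 libraries), the 40th highest mean among the 55335 genes. Postn, encoding periostin, which helps to assemble collagen fibrils, followed with 226 FPKM ± 68.8, and Sparcl1, the SPARC relative also called hevin, with 152 FPKM ± 50.4. Postn was above Sparcl1 in 5 of the 6 libraries, the exception being young replicate 1, so the order of this pair is within the spread. Sparc was above Postn, and Sparcl1 above Tnxb, in every library without overlap of their ranges. A middle group followed. It comprised Tnxb at 26.8 FPKM ± 7.02, Thbs3 at 17.0 ± 7.15, Tnc at 16.7 ± 9.67, Comp at 12.7 ± 7.57 and Thbs2 at 9.59 ± 2.21 (SD, 6 libraries each). Tnxb exceeded Thbs3 in every library by a factor of 1.07 to 2.22, but their ranges overlapped. Thbs3 and Tnc changed places between libraries, with Thbs3 above Tnc in 4 of 6, as did Tnc and Comp (3 of 6) and Comp and Thbs2 (4 of 6). Thbs1 lay below these at 2.75 FPKM ± 1.15 and Thbs4 last at 0.274 ± 0.267. Together the 10 genes took 0.501% to 0.939% of all counts, of which Sparc alone took 0.201% to 0.481%.

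**Figure D1:**
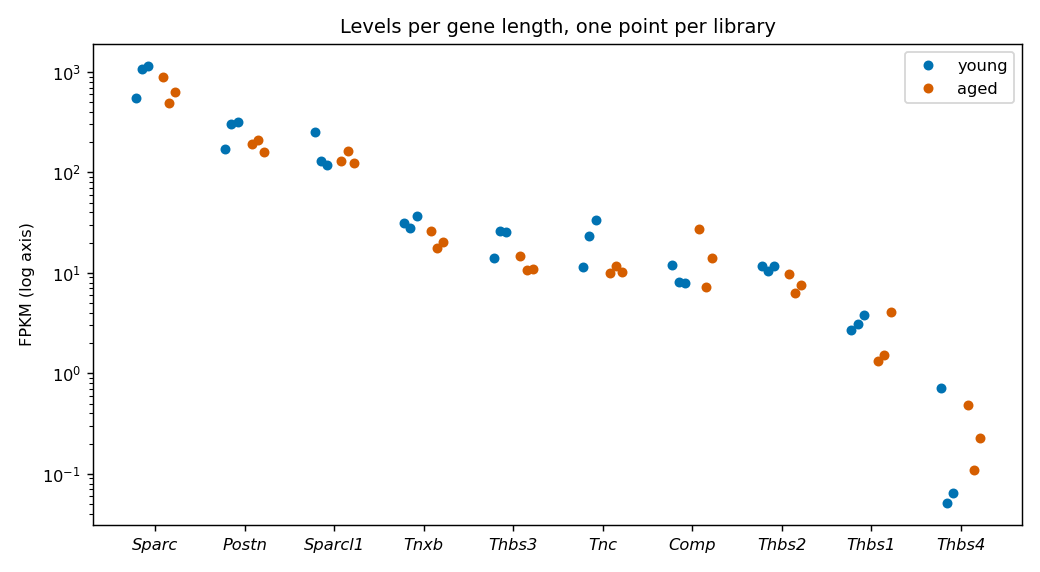
FPKM of the 10 genes (log axis), 1 point per library, young in blue and aged in orange, ordered by the mean over 6 libraries. Sparc lies highest with a mean of 800.3 FPKM, neighbours among the 5 genes from Tnxb to Thbs2 overlap in range, and Thbs4 lies lowest with a mean of 0.274 FPKM.

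The quasi-likelihood test of edgeR, run over all 16612 genes, asks which genes differ with age by more than the spread between mice. Between young and aged aorta, none of the 10 genes passed an adjusted p of 0.05, the share of all tested genes that passed also being 0%, and the lowest adjusted p among the 10 was 0.449. At an unadjusted p below 0.05, 2 of the 10 genes were lower in aged aorta, namely Tnc and Thbs3, and 0 were higher. Over all tested genes these shares were 4.82% lower and 5.56% higher, 10.4% in all. DESeq2's Wald test gave 0 of 10 genes an adjusted p below 0.05, where 2.0% of all genes passed, and 3 of 10 an unadjusted p below 0.05, where 7.42% of the genes with a p did. These were Tnc and Thbs3, lower in aged aorta, and Comp, higher (unadjusted p = 0.0178 and adjusted p = 0.264 from DESeq2). In CPM, 0 of the 10 genes separated the groups without overlap, against 16.5% of all genes tested, 7.74% with higher and 8.78% with lower values in aged aorta. The fitted log2 fold change was below 0 for 8 of 10 genes, with a median of -0.26, against 47.9% and a median of 0.02 over all genes. For the smooth muscle markers it was below 0 in 6 of 6, with a median of -0.32. Of these markers 0 passed an adjusted p of 0.05, 3 were lower at an unadjusted p below 0.05 and 2 were lower without overlap. The part of smooth muscle content in the values of the 10 genes was not tested.

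**Figure D2:**
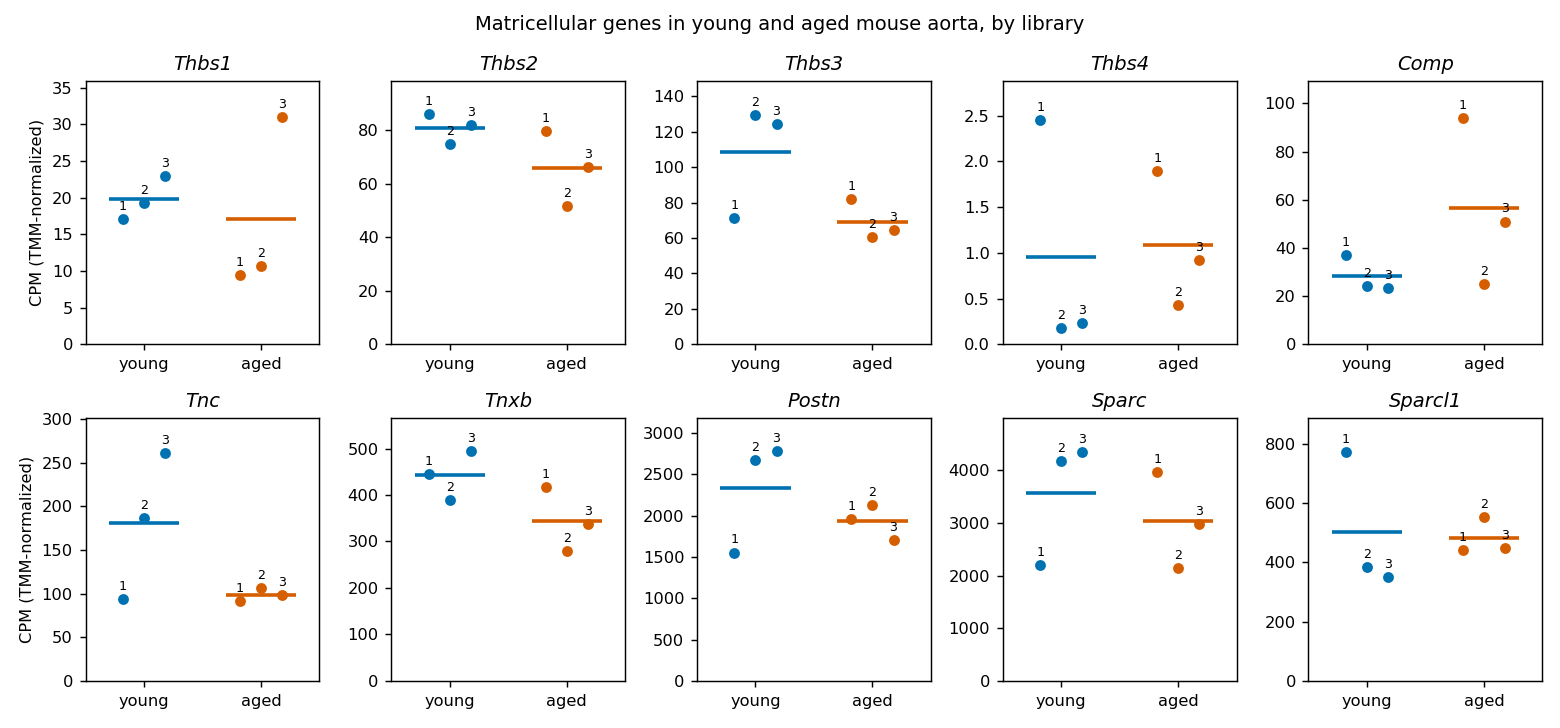
CPM of each gene by library, young in blue and aged in orange, where digits give the replicate number and horizontal lines the group mean of 3 libraries. Young replicates 2 and 3 lie above the 3 aged libraries for Tnc, Thbs3, Postn and Sparc, and young replicate 1 lies apart from them.

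Tnc had the lowest fold change of the list. It encodes tenascin-C, a hexameric glycoprotein that is abundant in developing and remodelling arteries and is bound by integrin alpha 9 beta 1 among others. The gene lies on chromosome 4 of GRCm38 (GENCODE M21) from 63959785 to 64047015 on the minus strand and has 27 separate exon blocks. Its level was 94.1, 187 and 261 CPM in young replicates 1, 2 and 3, and 91.4, 107 and 98.0 CPM in aged replicates 1, 2 and 3. The aged libraries were close together, with an SD of 7.67 CPM, and young replicate 1 lay among them, while the other young libraries were higher. The log2 fold change was -0.87 (standard error 0.34, 95% interval -1.67 to -0.07, unadjusted p = 0.0370 and adjusted p = 0.449 from edgeR). Without young replicate 1 it was -1.17 with an unadjusted p of 0.00113 and an adjusted p of 0.364 from edgeR. Leaving out young replicate 3, the highest, gave -0.50 with an unadjusted p of 0.152 from edgeR.

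Thbs3, a member of the thrombospondins that form pentamers, had the next lowest value. The gene lies on chromosome 3 from 89215180 to 89226837 on the plus strand, entirely within the span of Mtx1 on the opposite strand, which had 727 to 1163 counts per library. Since strand is not given for the counting, reads where exons of this pair overlap cannot be assigned with certainty. Thbs3 was at 71.5, 129 and 124 CPM in young replicates 1, 2 and 3 and at 82.2, 60.3 and 64.6 CPM in aged replicates 1, 2 and 3. Again young replicate 1 lay within the aged range and the other young libraries above it. The log2 fold change was -0.65 (standard error 0.26, 95% interval -1.25 to -0.05, unadjusted p = 0.0384 and adjusted p = 0.454 from edgeR). Without young replicate 1 it was -0.87 with an unadjusted p of 0.00352 and an adjusted p of 0.370 from edgeR.

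The promoters of Tnc, Thbs3 and Postn are shown because in these genes young replicates 2 and 3 lay above all other libraries. Sparc had the same order, but its matched window overlaps an annotated exon of the gene and is not shown. RefSeq promoters of GRCm38.p6 were matched for 7 of the 10 genes. The 250 bases before the start of transcription are printed 5′ to 3′ on the strand of the gene, for Tnc from chr4:64047016-64047265 (minus strand), for Thbs3 from chr3:89214930-89215179 (plus strand) and for Postn from chr3:54360857-54361106 (plus strand). A second RefSeq start of Tnc and of Postn is not shown. Capitals mark matches on either strand to short motifs, none of which overlapped another here. They were the TATA box, searched as TATAAA, the GC box of Sp1, searched as GGGCGG, the AP-1 site, searched as TGANTCA, and the CCAAT box, searched by those letters.
Tnc: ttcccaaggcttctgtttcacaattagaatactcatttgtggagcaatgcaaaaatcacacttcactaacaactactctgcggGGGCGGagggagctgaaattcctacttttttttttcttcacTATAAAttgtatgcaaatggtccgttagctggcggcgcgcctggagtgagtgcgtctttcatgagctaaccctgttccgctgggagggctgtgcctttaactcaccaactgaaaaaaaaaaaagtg
Thbs3: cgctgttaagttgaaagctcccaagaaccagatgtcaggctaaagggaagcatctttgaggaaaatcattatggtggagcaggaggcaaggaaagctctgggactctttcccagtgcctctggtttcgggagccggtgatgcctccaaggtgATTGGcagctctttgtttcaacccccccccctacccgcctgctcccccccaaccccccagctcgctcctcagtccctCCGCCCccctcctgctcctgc
Postn: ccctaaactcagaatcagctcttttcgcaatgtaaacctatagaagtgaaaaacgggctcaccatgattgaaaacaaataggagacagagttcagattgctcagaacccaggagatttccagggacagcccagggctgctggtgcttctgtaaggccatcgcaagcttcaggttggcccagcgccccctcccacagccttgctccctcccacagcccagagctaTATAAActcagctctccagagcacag
Counted back from the start, Postn has a TATA box at base -26. The TATAAA of Tnc lies at -126, with a GC box at -167. Thbs3 has no TATAAA here, but a GC box at -21 and a CCAAT box at -98. Of the 32851 promoter windows of this length, 12.4% hold TATAAA, 32.7% the GC box, 33.8% CCAAT and 6.75% the AP-1 site, which none of the 3 windows holds. These are matches of letters and not measured binding.

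The other tenascin, Tnxb, encodes tenascin-X, which binds collagen fibrils of loose connective tissue and whose loss in humans causes a form of Ehlers-Danlos syndrome. It lies on chromosome 17 from 34670535 to 34719815. Its level was 445, 389 and 495 CPM in young replicates 1, 2 and 3, and 416, 279 and 338 CPM in aged replicates 1, 2 and 3. Only aged replicate 1 reached the young range. The log2 fold change was -0.36 (standard error 0.20, adjusted p = 0.560 from edgeR), and with any 1 library left out it lay between -0.52 and -0.23. The FPKM ratio of Tnc to Tnxb was 0.367, 0.833 and 0.914 in young replicates 1, 2 and 3 and 0.381, 0.663 and 0.503 in aged replicates 1, 2 and 3. This ratio does not depend on library scaling, and its groups overlapped through young replicate 1.

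Thbs1 and Thbs2 encode the trimeric thrombospondins, which carry type 1 repeats that bind CD36 on endothelial cells. Thrombospondin-1 activates latent TGF-beta and is also stored in platelets. Thbs1, on chromosome 2 from 118111876 to 118127133, was at 17.1, 19.2 and 23.0 CPM in young replicates 1, 2 and 3, and at 9.45, 10.7 and 31.0 CPM in aged replicates 1, 2 and 3. Aged replicate 3 held the highest and the other aged libraries the lowest values of all 6. In the fit, the log2 fold change was -0.21 (standard error 0.45, adjusted p = 0.885 from edgeR). Without aged replicate 3 it was -0.97 with an unadjusted p of 0.00467 and an adjusted p of 0.689 from edgeR, while without aged replicate 1 it was 0.08 and without aged replicate 2 it was 0.03. As aged replicate 3 alone was not below the young range, leaving it out separates the groups of Thbs1 by itself and adds no support.

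Markers of endothelial cells were also highest in aged replicate 3. Pecam1, Cdh5, Vwf, Kdr and Tie1 summed to 1563 CPM there, and 5 of 5 had their highest value in that library. The sums were 461, 416 and 377 CPM in young replicates 1, 2 and 3, the reverse order of Thbs1. In aged replicates 1 and 2 they were 348 and 317 CPM. Platelet genes (Pf4, Ppbp, Itga2b, Gp9, Gp1bb and Gp5) summed to 19.9, 61.0 and 57.7 CPM in young replicates 1, 2 and 3 and to 23.6, 27.5 and 56.4 CPM in aged replicates 1, 2 and 3. The part of these cells in the Thbs1 values was not tested.

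Thbs2, which limits collagen fibril diameter and angiogenesis, lies on chromosome 17 from 14665500 to 14694235. It was at 86.1, 74.8 and 82.0 CPM in young replicates 1, 2 and 3, and at 79.7, 51.7 and 66.1 CPM in aged replicates 1, 2 and 3. As for Tnxb, only aged replicate 1 lay within the young range. Between groups, the log2 fold change was -0.30 (standard error 0.19, adjusted p = 0.610 from edgeR). On the scale of FPKM, Thbs2 and Tnxb were lower in every aged than in every young library, as were 20.9% of all genes tested, and 24.2% did not overlap in either direction. Their log2 fold changes by limma on log2(FPKM + 1) were -0.48 and -0.57 (adjusted p = 0.271 and 0.259), where the median of all genes was -0.12. Thbs2 exceeded Thbs1 in FPKM by a factor of 3.10 to 4.37 in young and 1.85 to 7.33 in aged libraries, the lowest in aged replicate 3.

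Comp, cartilage oligomeric matrix protein, is a pentamer of the same family that binds collagens, is best known from cartilage and tendon and is also made by smooth muscle. It lies on chromosome 8 from 70373558 to 70382066. Comp had the highest positive fold change of the list. Its level was 37.0, 24.3 and 23.3 CPM in young replicates 1, 2 and 3, and 94.1, 24.9 and 51.0 CPM in aged replicates 1, 2 and 3. Aged replicates 1 and 3 were above all young libraries, and aged replicate 2 was within the young range. By edgeR the log2 fold change was 1.00 (standard error 0.45, 95% interval -0.06 to 2.07, adjusted p = 0.503 from edgeR). Without aged replicate 2 it was 1.36 with an unadjusted p of 0.00432 and an adjusted p of 0.154. Of the 10 genes, 0 passed an adjusted p of 0.05 without that library, where 0.642% of all genes did. Comp alone then had an unadjusted p below 0.05, where 8.19% of all genes were higher and 5.57% lower, and was alone in separating the groups, as 17.2% of all genes did in its direction. As aged replicate 2 alone lay within the young range, leaving it out separates the groups of Comp by itself and adds no support. Without aged replicate 1 the log2 fold change of Comp was 0.42 with an unadjusted p of 0.283 from edgeR.

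Fibroblast markers were high in aged replicates 1 and 3, the libraries with the most Comp. Within the young group the order was opposite, with the most Comp and the lowest fibroblast sum in young replicate 1. Dcn, Lum, Pdgfra, Pi16, Dpt and Serpinf1 summed to 1037, 1131 and 1447 CPM in young replicates 1, 2 and 3, and to 5111, 1031 and 3925 CPM in aged replicates 1, 2 and 3. Of these 6 markers, 5 were higher at an unadjusted p below 0.05, where 5.56% of all tested genes were, and 0 passed adjustment over all genes. Markers of cartilage and tendon summed to 42.8 to 48.0 CPM in young and 32.4 to 43.0 CPM in aged aorta. Acan was the largest of them, at 15.6, 19.9 and 25.7 CPM in aged replicates 1, 2 and 3. Single markers differed, and Tnmd had the order of Comp among the aged libraries, at 3.58, 1.17 and 2.02 CPM. In young replicates 1, 2 and 3 it ran opposite to Comp, at 1.65, 2.04 and 3.79 CPM. Chad had the order of Comp within both groups. It was at 8.34, 1.67 and 0.641 CPM in young and 1.41, 0.133 and 1.38 CPM in aged replicates 1, 2 and 3. Its log2 fold change was -1.88 (edgeR adjusted p = 0.581). The cartilage collagen Col2a1 was at 1.16 CPM or less in every library. Macrophage markers (Adgre1, Cd68, Csf1r, Mrc1 and Lyz2) summed to 74.3 to 94.4 CPM in young and to 305, 101 and 204 CPM in aged replicates 1, 2 and 3, without overlap. The part of fibroblast and other cell content in the Comp values was not tested.

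Thbs4, a pentameric thrombospondin of tendon, heart and skeletal muscle, was the rarest of the list. It lies on chromosome 13 from 92751590 to 92794818. Counts were 119, 6 and 8 for young replicates 1, 2 and 3 and 63, 16 and 26 for the aged ones in the same order, which is 2.46, 0.172 and 0.233 CPM and 1.90, 0.424 and 0.920 CPM. Young replicate 1 was the highest library and the other young libraries the lowest. Its log2 fold change was 0.16 with a standard error of 1.07 (adjusted p = 0.967 from edgeR), and 2.39 without young replicate 1, with an unadjusted p of 0.0317 and an adjusted p of 0.409 from edgeR. The striated muscle genes Myh6, Tnnt2, Actc1, Ckm, Acta1, Myh4 and Tnnt3 summed to 261 CPM in young replicate 1 against 45.1 to 62.5 CPM in the other libraries. Of these 7 genes, 5 were highest in that library, while Myh4 was highest in aged replicate 2 and Tnnt3 was lowest in young replicate 1. The heart myosin gene Myh6 was at 79.7 CPM there and at 13.1 CPM or less elsewhere. In Thbs4, aged replicate 1 was near young replicate 1, at 1.90 against 2.46 CPM. Its striated muscle sum was 62.5 CPM, against 261 CPM in young replicate 1. The part of striated muscle in the Thbs4 values was not tested.

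**Figure D3:**
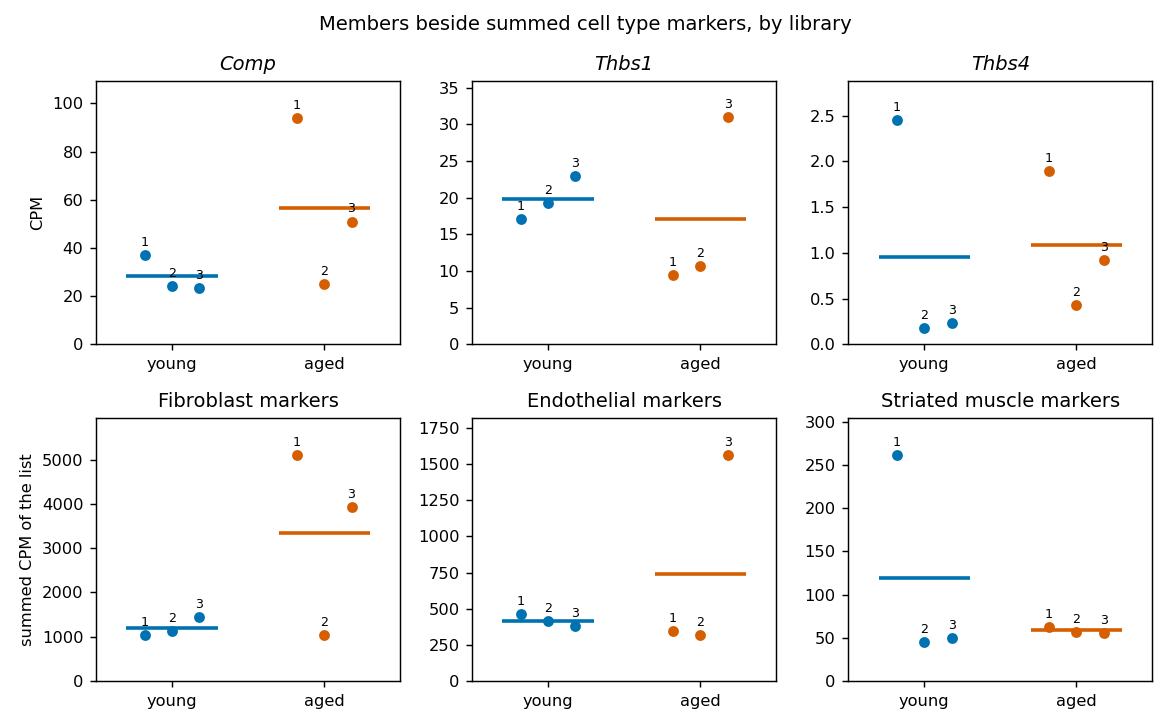
CPM of Comp, Thbs1 and Thbs4 (top) above the summed CPM of fibroblast, endothelial and striated muscle markers (bottom) in the same libraries, where digits give the replicate number and lines the group mean. Comp and the fibroblast sum are highest in aged replicates 1 and 3, Thbs1 and the endothelial sum in aged replicate 3, and Thbs4 and the striated muscle sum in young replicate 1. Among the young libraries, Comp and the fibroblast sum run in opposite order, as do Thbs1 and the endothelial sum. Thbs4 is at 1.90 CPM in aged replicate 1 and 2.46 CPM in young replicate 1, where the striated muscle sums are 62.5 and 261 CPM.

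The makeup of the thrombospondin family was read as shares of its summed FPKM. The 5 genes Thbs1 to Thbs4 and Comp summed to 41.1, 48.0 and 49.2 FPKM in young replicates 1, 2 and 3, and to 53.2, 25.8 and 36.7 FPKM in aged replicates 1, 2 and 3. Thbs3 was 54.8% and 52.4% of this sum in young replicates 2 and 3, but 34.3% in young replicate 1 and 27.3%, 41.5% and 29.5% in aged replicates 1, 2 and 3. Comp was 16.8% and 16.0% in young replicates 2 and 3, 29.0% in young replicate 1 and 51.0%, 27.9% and 37.9% in aged replicates 1, 2 and 3. Thus the leading thrombospondin was Thbs3 in 4 libraries and Comp in aged replicates 1 and 3. The FPKM ratio of Comp to Thbs3 was 0.844, 0.306 and 0.306 in young replicates 1, 2 and 3 and 1.87, 0.672 and 1.29 in aged replicates 1, 2 and 3, so that only young replicate 1 and aged replicate 2 were out of order.

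Postn, on chromosome 3 from 54361109 to 54391037, was at 1554, 2675 and 2782 CPM in young replicates 1, 2 and 3, and at 1957, 2126 and 1708 CPM in aged replicates 1, 2 and 3. Young replicate 1 was the lowest of all 6 libraries and the other young libraries were the highest. In the fit, the log2 fold change was -0.28 (standard error 0.25, adjusted p = 0.715 from edgeR), and -0.49 without young replicate 1, with an unadjusted p of 0.0313 and an adjusted p of 0.407 from edgeR.

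Sparc and Sparcl1 encode relatives with a shared collagen-binding and calcium-binding end. Sparc, on chromosome 11 from 55394500 to 55423183, was at 2209, 4168 and 4353 CPM in young replicates 1, 2 and 3, and at 3970, 2147 and 2983 CPM in aged replicates 1, 2 and 3. Aged replicate 1 lay beside the high young libraries and aged replicate 2 beside young replicate 1. Between groups, the log2 fold change of -0.24 had a standard error of 0.33 (adjusted p = 0.815 from edgeR). Sparcl1, on chromosome 5 from 104079111 to 104113733, was at 772, 385 and 351 CPM in young replicates 1, 2 and 3, and at 443, 555 and 450 CPM in aged replicates 1, 2 and 3. Here young replicate 1 was the highest and the other young libraries the lowest. By edgeR the log2 fold change was -0.06 (standard error 0.32, adjusted p = 0.959 from edgeR) and turned to 0.40 without young replicate 1, with an adjusted p of 0.471. The FPKM ratio of Sparc to Sparcl1 was 2.22, 8.39 and 9.62 in young replicates 1, 2 and 3 and 6.96, 3.0 and 5.15 in aged replicates 1, 2 and 3.

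Young replicate 1 lay apart from the other young libraries in most of these genes. Relative to the mean of the other young libraries it held 0.421 times the CPM of Tnc, 0.518 times that of Sparc, 0.564 times that of Thbs3 and 0.569 times that of Postn. It held 2.10 times the CPM of Sparcl1 and 12.1 times that of Thbs4. For Tnc, Thbs3, Sparc, Comp and Thbs1 its CPM lay within the range of the aged libraries. Without this library, 0 of 10 genes passed an adjusted p of 0.05, as did 0% of all genes. At an unadjusted p below 0.05, Tnc, Thbs3 and Postn were lower, where 5.41% of all tested genes were, and Thbs4 was higher, where 5.90% were. Tnc, Thbs3, Postn and Sparc were then lower in every aged than in every young library, as were 16.9% of all genes with these 5 libraries. Comp, Thbs4 and Sparcl1 were higher in every aged library, as were 16.1% of all genes. With 2 young libraries such separation needs less than with 3. The log2 fold changes not given above were, without young replicate 1, 1.25 for Comp, -0.48 for Sparc, -0.35 for Tnxb, -0.30 for Thbs1 and -0.24 for Thbs2.

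**Figure D4:**
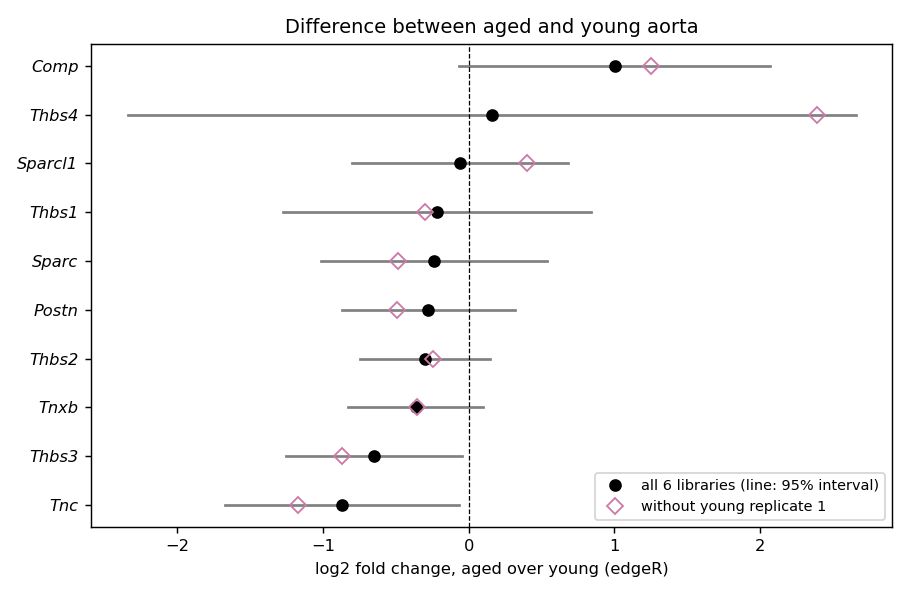
Log2 fold change of aged over young aorta by edgeR for the 10 genes, with all 6 libraries (black points, lines are 95% intervals) and without young replicate 1 (open diamonds). Only the intervals of Tnc and Thbs3 exclude 0, before adjustment for the number of genes tested, and Sparcl1 changes sign without young replicate 1.

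Other genes around these proteins were read from lists written by hand. Among other matricellular genes, 16 of 20 were tested. None passed an adjusted p of 0.05 by edgeR, 4 were higher and 1 lower at an unadjusted p below 0.05, and the median log2 fold change was 0.72. Over all tested genes, 5.56% were higher and 4.82% lower at that p, with a median of 0.02. Of the list, 2 genes were higher and 1 lower without overlap of the groups, against 7.74% and 8.78% of all genes. Fstl1, a secreted SPARC relative, averaged 1400 ± 70.3 CPM (SD, n = 3) in young and 977 ± 137 CPM (SD, n = 3) in aged aorta without overlap of the groups (log2 fold change -0.52, edgeR adjusted p = 0.403). Nov, also called Ccn3, a CCN family protein of smooth muscle, averaged 799 ± 76.8 and 1142 ± 146 CPM (SD, n = 3 each), also without overlap (log2 fold change 0.51, edgeR adjusted p = 0.414). Spock2, a SPARC-related proteoglycan, was at 7.66 to 15.3 CPM in young libraries and at 36.8, 13.2 and 53.0 CPM in aged replicates 1, 2 and 3. Like Comp, it was high in aged replicates 1 and 3 and within the young range in aged replicate 2.

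All 22 genes of the receptor list were tested, with 0 passing an adjusted p of 0.05, 0 higher and 3 lower at an unadjusted p below 0.05 and a median log2 fold change of -0.06. The shares over all tested genes were 5.56% higher and 4.82% lower, with a median of 0.02. Itga9, the alpha chain of a tenascin-C receptor, averaged 658 ± 94.9 CPM (SD, n = 3) in young and 433 ± 30.4 CPM (SD, n = 3) in aged aorta (log2 fold change -0.61, edgeR adjusted p = 0.377). Itgb3, the beta chain of the receptor alpha v beta 3 for periostin and thrombospondin-1, averaged 158 ± 31.7 and 104 ± 10.8 CPM (SD, n = 3 each; log2 fold change -0.60, edgeR adjusted p = 0.40). Notch3, whose protein thrombospondin-2 can bind, averaged 39.2 ± 5.91 and 24.0 ± 1.64 CPM (SD, n = 3 each; log2 fold change -0.71, edgeR adjusted p = 0.372). In these 3 genes, named for the smallest p of the list, every aged library lay below every young one, young replicate 1 included. In the whole list 4 of 22 genes did so, against 8.78% of all genes tested. The thrombospondin receptors Cd36 and Cd47 had log2 fold changes of 0.55 and 0.25 (edgeR adjusted p = 0.725 and 0.901).

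Among 14 matrix partners, 1 gene was higher and 2 lower at an unadjusted p below 0.05, with 0 passing adjustment and a median log2 fold change of -0.27. For this list and those that follow, the shares over all tested genes were 5.56% higher and 4.82% lower, with a median of 0.02. Eln, the elastin gene, averaged 5038 ± 225 CPM (SD, n = 3) in young and 2634 ± 612 CPM (SD, n = 3) in aged aorta (log2 fold change -0.94, edgeR adjusted p = 0.372). Dcn, encoding the collagen-binding proteoglycan decorin, and Col5a1, a chain of collagen V, had fitted values of 1.45 and -0.54 on the log2 scale (edgeR adjusted p = 0.436 and 0.469). Among 13 genes of the TGF-beta axis, 1 was lower at an unadjusted p below 0.05, namely Ltbp3, which stores latent TGF-beta in the matrix, at -0.36 on the log2 scale (edgeR adjusted p = 0.470). Smad7 and Tgfb2 followed with log2 fold changes of -0.48 and -0.39 (adjusted p = 0.622 and 0.629 from edgeR). Of 8 early response genes, which are induced within minutes by handling and other stimuli, Junb was higher and Atf3 lower at an unadjusted p below 0.05, with log2 fold changes of 1.22 and -1.79 (adjusted p = 0.377 each from edgeR), and the next, Egr1, was at -0.70 (adjusted p = 0.549 from edgeR).

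**Figure D5:**
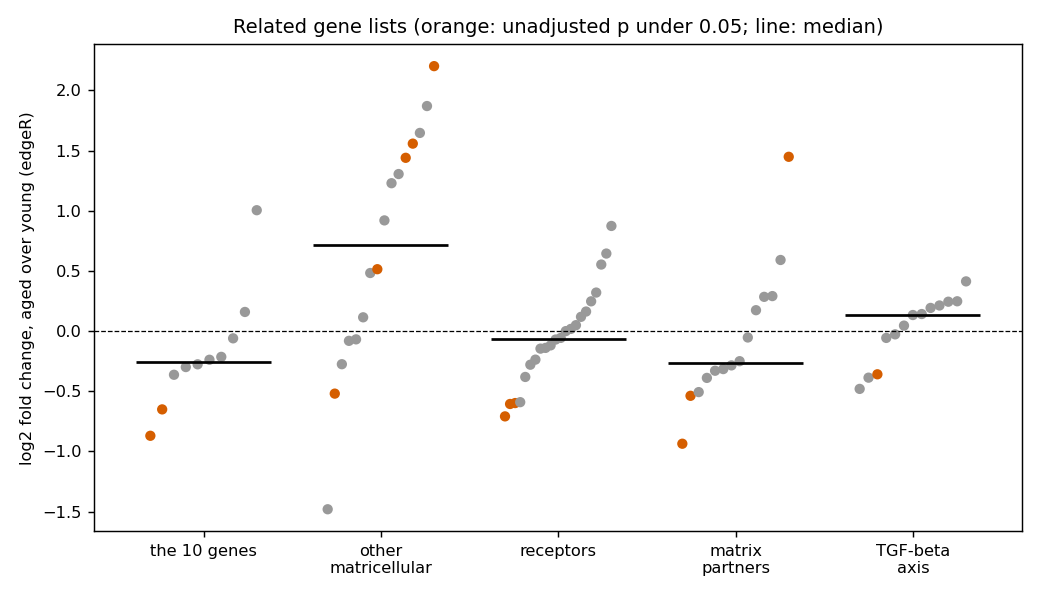
Log2 fold change of aged over young aorta by edgeR for tested genes of 5 lists, 1 point per gene, orange where the unadjusted p is below 0.05, with a line at the median. The medians are -0.26 for the 10 genes, 0.72 for other matricellular genes, -0.06 for receptors, -0.27 for matrix partners and 0.13 for the TGF-beta axis, and no gene passed adjustment over all genes tested.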

How the data were processed

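The authors deposited a table of read counts per gene, which are whole numbers without normalization, and a table of FPKM, which the authors scaled by gene length and library. The submitters' processing notes name build mm10, and the methods state single-ended reads. Aligner, counting tool and strand setting are not given in the sources used here. Gene coordinates come from GENCODE M21 (GRCm38), which holds 55154 of 55335 identifiers.

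Counts were analysed in R 4.3.3 with edgeR 4.0.16 (filterByExpr by group with a minimum count of 10 and total of 15, TMM, quasi-likelihood test without covariates, Benjamini-Hochberg adjustment over all 16612 genes, threshold 0.05). Standard errors were computed from the fold change and F. Limits of intervals are 95%. The fit was checked on simulated counts. Groups and replicate numbers come from the sample titles, and the series' design text gives 3 mice per age. The alternatives were RLE size factors, 2 other filters, DESeq2 1.42.0, limma 3.58.1 (deposited FPKM on the log2 scale after adding 1 or 0.1), the replicate number as a block, removal of mitochondrial genome genes and each library left out in turn.

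The members and lists were chosen with earlier results of these data known. Named are all 10 genes and the 3 genes of smallest p in each list of related genes. Cd36, Cd47, Myh6, Acan, Tnmd, Chad and Col2a1 were named after their values were seen. Genes of nearest pattern were to be named only for members whose groups do not overlap, and there were 0 such members.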

Additional observations from a re-analysis of the deposited data

Results flagged for a closer look

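Xist in young replicate 1, at 306 CPM against 0.204 to 0.636 CPM in the other 5 libraries, lay far from the rest. Its distance to the next library was 0.999 of the range over all 6, past the limit of Dixon's test, which chance exceeds in about 1 of 20 groups. None of the 10 matricellular genes passed that limit over the 6 libraries, Comp coming nearest with 0.609 through aged replicate 1.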

How the results depend on the processing

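The count of 0 of the 10 genes past an adjusted p of 0.05 held in every alternative, with lowest adjusted p between 0.154 and 0.850, and it was 0 with each library left out in turn. The count at an unadjusted p below 0.05, 2 genes, was 4 with limma on FPKM at a pseudocount of 1 and 4 at 0.1, where the share over all genes was 16.1% and 16% against 10.4%. It lay between 0 and 4 with 1 library left out, the latter without young replicate 1, and the share over all genes then lay between 6.13% and 13.8%. The count of genes whose groups do not overlap, 0, was 2 in FPKM, where 24.2% of all genes did not overlap. It lay between 0 and 7 with 1 library left out, again highest without young replicate 1, and the share over all genes, with fewer libraries to separate, lay between 22% and 33%. Over all genes, DESeq2 called 307 where edgeR called 0 (1723 at an unadjusted p below 0.05). With 1 library left out, edgeR called from 0 to 110, the higher number when aged replicate 2 was absent. No cause of these changes was tested.

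Of 139 values of single genes under alternatives, 132 kept their direction and 7 did not. Sparcl1 went to 0.0325 with the replicate block, and between -0.25 and 0.40 with 1 library left out. Thbs4 lay between -0.53 and 2.39 and Thbs1 between -0.97 and 0.0773 with 1 library left out, with -0.32 and -0.29 for Thbs4 without young replicates 2 and 3, and 0.033 for Thbs1 without aged replicate 2. Thbs4 was not fitted with at least 10 counts in every library. Tnc, Thbs3, Thbs2, Tnxb, Postn and Sparc stayed below 0 and Comp above 0 in all 14 alternatives. With the replicate block, 0 genes of 10 were called and 2 had an unadjusted p below 0.05, Tnc and Comp, against 10.7% of all genes. Deviations of libraries with the same number correlated at 0.079, 0.134 and 0.128. Libraries with different numbers were not compared in this way, so these values cannot show whether the numbers pair mice. The main fit took the mice as unpaired. Thbs4 had the fewest counts of the 10 genes, 6 to 119 per library.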
